A study of Mus musculus with 8 samples.

Results

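Hair keratins and keratin-associated proteins (KAPs) were examined in mouse tongue, in tumours raised with a carcinogen and in normal tissue. The 67 genes were chosen by symbol alone: 52 whose symbol begins with Krtap and 15 hair keratins, out of 23235 rows in the authors' deposited table. Of these, 33 had enough data to be tested by the authors (11 hair keratins and 22 KAP genes), 31 were left untested for lack of signal, and 3 carried a failed estimate. The tumour group was 3 tongue squamous cell carcinomas from female C57BL/6 mice treated with 4-nitroquinoline 1-oxide (4-NQO), a DNA-damaging carcinogen, and the normal group was 5 tongues from female C57BL/6 mice not given 4-NQO. RNA was poly(A)-selected for sequencing. Age, dose and length of treatment are not in the labels. Separate animals are not stated either, and the deposited p-values then cover the spread among these samples, which may be technical.

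Hair keratins are the hard, cysteine-rich members of the intermediate filament family. A type I (acidic) chain pairs with a type II (basic) chain to build a filament, and KAPs fill the space between filaments and cross-link them through disulfide bonds. KAPs are sorted by composition into high-sulfur, ultrahigh-sulfur and high glycine-tyrosine families. These proteins are best known from hair and nail, but the filiform papillae, the keratinised spines on the upper surface of the rodent tongue, also contain hard keratins. In the hair follicle, the homeodomain factor HOXC13 binds hair keratin promoters and LEF1 acts downstream of Wnt signals.

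The deposited table gives a single FPKM (fragments scaled by transcript length and by the number of mapped fragments) for each group. No value per sample can therefore be shown, and whether all normal tongues, or all carcinomas, held a given level is unknown. Every level and fold change below is the authors', the fold change is carcinoma over normal on a log2 scale, and the ± is the standard error implied by the authors' own statistic. A gene is said to have fallen or risen where the deposited q-value was under 0.05. Because a row was tested only when it had enough signal in some group, and the tested members were higher in normal tongue, the counts of tested members describe those members and do not stand for all 67.

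Promoters of 4 of the genes are shown because the tested genes moved together in the comparison while untested KAP genes lie beside them in the genome. Each is the RefSeq window of 300 bases from 250 bases before to 50 bases after the gene start in GRCm38.p6, 5′ to 3′ on the strand of the gene, which is the minus strand for all 4. Capitals mark the TATA motif TATAAA on the strand of the gene, and matches on either strand to the HOXC13 element (TTTATN or TTAATN followed by a pair of purines) that do not overlap a TATAAA. Among genes named Krtap, Krtap3-1 (chr11:99566581-99566880) was the most abundant in normal tongue and Krtap13 (chr16:88751579-88751878) the most abundant of the second cluster. Krtap4-1 (chr11:99628190-99628489) belongs to the family with the deepest fall, and Krtap6-2 (chr16:89420062-89420361) is a high glycine-tyrosine gene that was too low to be tested.
Krtap3-1: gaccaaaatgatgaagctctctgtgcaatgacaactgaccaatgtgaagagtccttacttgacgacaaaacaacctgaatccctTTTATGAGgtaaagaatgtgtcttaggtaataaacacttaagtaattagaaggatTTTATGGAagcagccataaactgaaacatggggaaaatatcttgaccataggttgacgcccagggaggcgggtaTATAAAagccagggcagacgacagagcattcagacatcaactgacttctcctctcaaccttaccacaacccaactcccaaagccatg
Krtap13: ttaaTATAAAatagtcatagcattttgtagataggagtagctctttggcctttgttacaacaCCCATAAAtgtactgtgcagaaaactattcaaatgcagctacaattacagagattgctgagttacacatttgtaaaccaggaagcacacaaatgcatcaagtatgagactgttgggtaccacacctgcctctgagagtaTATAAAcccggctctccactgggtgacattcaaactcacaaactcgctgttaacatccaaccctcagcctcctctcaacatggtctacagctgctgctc
Krtap4-1: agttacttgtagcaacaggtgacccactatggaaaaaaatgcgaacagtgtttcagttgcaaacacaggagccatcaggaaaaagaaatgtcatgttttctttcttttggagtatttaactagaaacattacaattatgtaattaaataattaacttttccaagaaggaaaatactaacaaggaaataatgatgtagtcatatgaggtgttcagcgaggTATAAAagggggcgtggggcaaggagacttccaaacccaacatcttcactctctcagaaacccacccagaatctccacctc
Krtap6-2: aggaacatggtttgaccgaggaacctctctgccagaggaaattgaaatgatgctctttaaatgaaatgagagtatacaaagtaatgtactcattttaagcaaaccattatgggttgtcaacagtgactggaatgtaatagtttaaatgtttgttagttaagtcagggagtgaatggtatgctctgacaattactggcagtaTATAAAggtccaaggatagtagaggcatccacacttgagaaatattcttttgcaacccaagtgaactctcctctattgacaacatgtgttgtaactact

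All 4 windows hold the TATA motif, with the nearest copy beginning 37 bases before the start in Krtap3-1, 49 in Krtap13, 31 in Krtap4-1 and 49 in Krtap6-2. The HOXC13 element is present at 2 places in Krtap3-1 and at 1 in Krtap13, and these letters are not in the windows of Krtap4-1 and Krtap6-2. Among the genes that fell, 24 of 31 had a window in the RefSeq table, and 20 of those (83.3%) held TATAAA on the strand of the gene, against 21 of 28 untested KAP genes (75.0%) and 8.88% of 27025 mouse promoters. Counted on either strand, the shares were 83.3%, 75.0% and 14.2%. The HOXC13 element apart from TATAAA was found in 17 of the 24 (70.8%), in 9 of the 28 untested KAP genes (32.1%) and in 16.4% of all promoters. With matches that overlap a TATAAA the shares were 75.0%, 35.7% and 19.4%. None of the motif shares compares KAP genes alone, because the genes that fell include hair keratins and the untested set holds only KAP genes. The share for KAP genes alone was not computed. The LEF1-type motif CTTTGNA on either strand was in 41.7% of the genes that fell, 28.6% of the untested KAP genes and 18.1% of all promoters. The longer string CTTTGAAGA, which contains that motif, ranked the gene sets the other way. It was in 1 of the 24 (4.17%), 3 of the 28 (10.7%) and 0.511% of all promoters. The windows of the genes that fell had a median A+T content of 58.5%, those of the untested KAP genes 58.3% and all promoters 47.3%, and the part of base composition in these shares was not tested. A match is a string of letters and does not show that a factor binds.

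Most tested hair keratins of both types and most tested KAP genes were far lower in the carcinomas. By the authors' deposited q-values, 31 of the 33 tested members fell and none rose, where 3.19% of the 15783 tested genes fell and 3.07% rose (6.26% called in either direction). At an unadjusted p under 0.05, 32 members were lower and 0 were higher. The 2 exceptions were Krt32 and Krtap12-1, whose fold changes were negative and not called. The median log2 fold change of the 33 was −4.22, beside −0.04 over 15686 tested genes with a finite fold change. The drops were large: the 31 genes retained between 0.679% and 18.3% of their normal FPKM, which is a 147-fold to 5.45-fold reduction. In such bulk RNA, fewer cells of a type and less RNA per cell cannot be told apart.

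**Figure D1:**
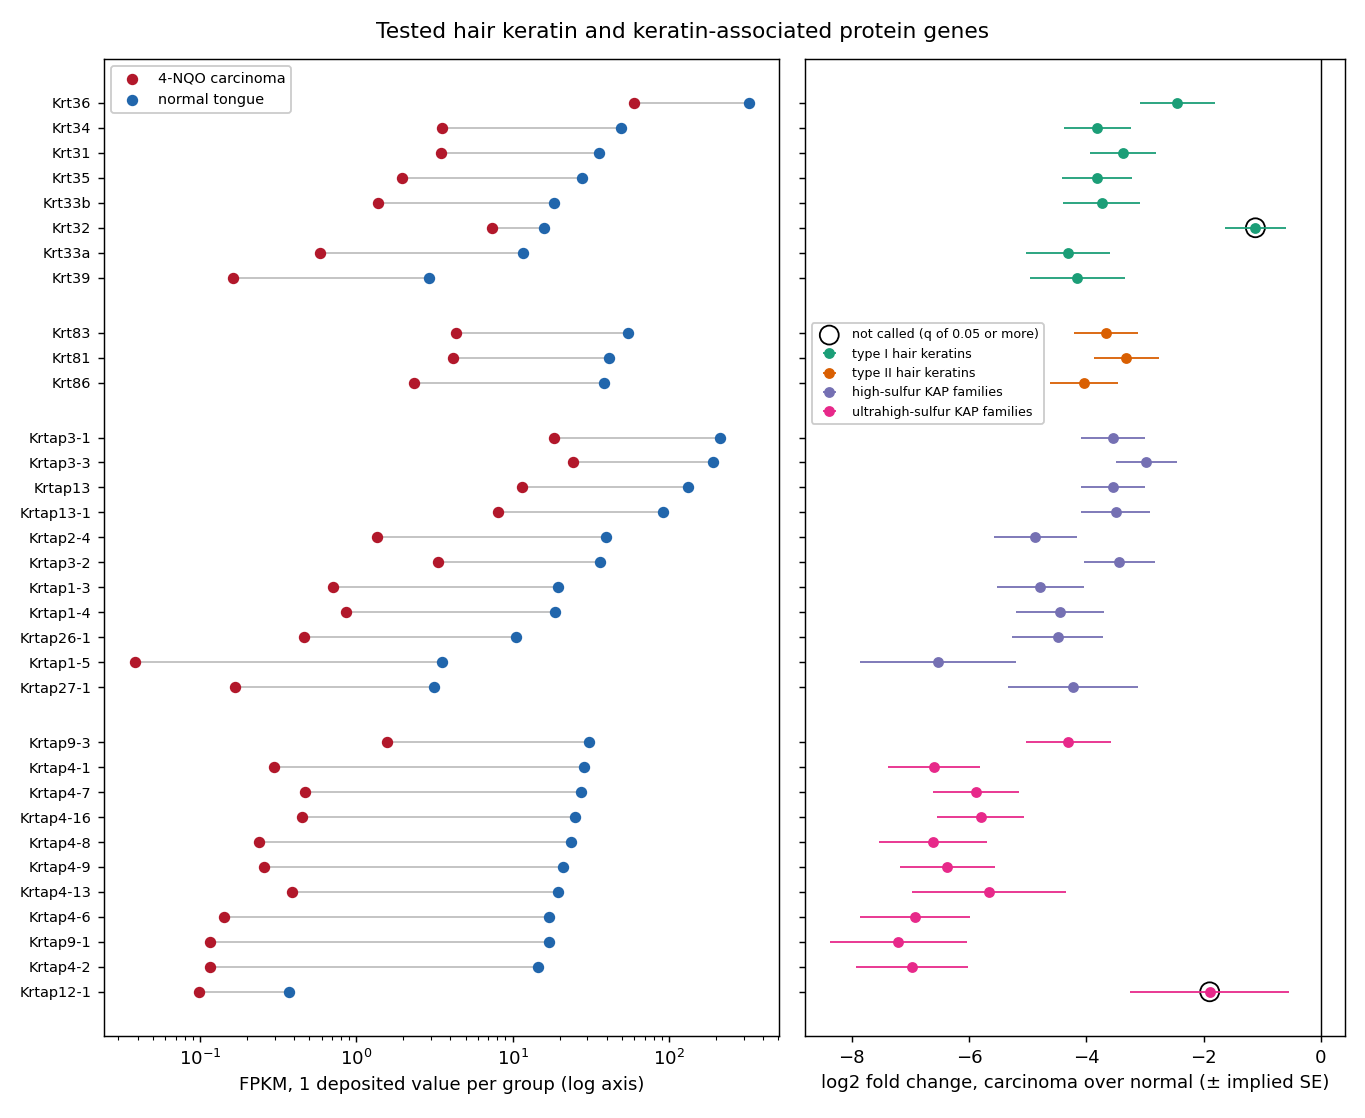
Levels of the 33 tested genes, 1 row each, grouped by protein class. Left, FPKM in 4-NQO carcinoma (red) and normal tongue (blue) on a log axis, 1 deposited value per group; right, log2 fold change of carcinoma over normal with the standard error implied by the authors' statistic as bars. All 33 red points lie left of the blue ones, the Krtap4 genes fall furthest as a family, and the circled genes Krt32 and Krtap12-1 were not called.

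Among type I hair keratins, 7 of 8 tested genes fell. Krt36, a hard keratin of filiform papillae and the most abundant hair keratin here, stood at 59.4 FPKM in carcinomas and 324 FPKM in normal tongue, where it exceeded 98.2% of tested genes. Its log2 fold change of −2.45 ± 0.64 (q = 0.00821 in the authors' deposited table) was the smallest of all members that fell. With a pseudocount of 1 FPKM it was −2.43, and Krtap1-5, Krtap27-1 and Krt39 were then closer to 0. It made up 67.0% of the summed FPKM of the 11 tested hair keratins in carcinomas and 52.2% in normal tongue.

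The cortex-type chains, which in the hair shaft fill the cortex, were lower by more. Krt34 had 3.51 FPKM in carcinomas and 49.4 FPKM in normal tongue (log2 fold change −3.82 ± 0.57, deposited q = 6.43e-09). Krt31 had 3.46 FPKM in carcinomas and 35.9 FPKM in normal tongue (−3.37 ± 0.57, deposited q = 4.56e-07). Both therefore retained under 10% of their normal level. Krt33b, a close relative, had 1.37 FPKM in carcinomas and 18.3 FPKM in normal tongue (−3.74 ± 0.66, deposited q = 2.04e-06). Krt33a had 0.584 FPKM in carcinomas and 11.6 FPKM in normal tongue (−4.31 ± 0.72, deposited q = 4.61e-07). These 4 transcripts share 21.9% to 33.1% of their 50-base windows (every stretch of 50 bases in the transcript) with another gene's transcript, mainly among themselves, so the split of reads between them is uncertain.

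Krt35, an early keratin of hair matrix and cuticle, was at 1.96 FPKM in carcinomas and 27.8 FPKM in normal tongue (−3.82 ± 0.60, deposited q = 3.85e-08). Krt39 was scarce in both groups, at 0.163 FPKM in carcinomas and 2.91 FPKM in normal tongue, yet it fell by a similar ratio (−4.15 ± 0.81, deposited q = 3.84e-05). Krt40 was untested at 0.0209 FPKM in carcinomas and 0.0134 FPKM in normal tongue, so its level was near 0 in both.

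Krt32, a hair cuticle keratin, stood apart from the other tested type I genes. It was listed at 7.36 FPKM in carcinomas and 15.98 FPKM in normal tongue, a log2 fold change of −1.12 ± 0.52 that was not called (p = 0.0316, q = 0.461 in the authors' deposited table). Carcinomas thus held 46.1% of its normal level, and it became the second most abundant of the tested hair keratins in carcinomas. Its transcript shared no 50-base window with a transcript of another gene.

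All 3 tested type II hair keratins fell. Krt83 was at 4.32 FPKM in carcinomas and 54.8 FPKM in normal tongue (−3.67 ± 0.55, q = 6.41e-09 in the authors' deposited table); its accession is now named Krt87 in RefSeq. Krt86 had 2.33 FPKM in carcinomas and 38.1 FPKM in normal tongue (−4.03 ± 0.58, deposited q = 1.34e-09), and Krt81 had 4.15 FPKM in carcinomas and 41.3 FPKM in normal tongue (−3.32 ± 0.55, deposited q = 4.04e-07). Between 36.9% and 43.5% of the 50-base windows of these 3 transcripts occur in another gene's transcript, for Krt81 and Krt86 mainly in each other's, so their separate values are uncertain.

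Krt82, Krt84 and Krt85 are listed at 0 in both groups with a failed estimate. They share a single deposited locus with the keratins Krt6a, Krt6b and Krt75, and nothing can be read from these zeros about Krt84, the type II keratin of filiform papillae, or about the other two. The tested type II genes summed to 10.8 FPKM in carcinomas and 134 FPKM in normal tongue. The type I genes other than Krt36 summed to 18.4 FPKM in carcinomas and 162 FPKM in normal tongue. Without Krt36, and without the 3 failed type II genes, the ratio of type I to type II was 1.71 in carcinomas and 1.21 in normal tongue.

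The tested KAP genes other than Krtap12-1 were at 3.14 FPKM or more in normal tongue, and the untested ones at 0.236 FPKM or less. Of the 52 KAP rows, 22 were tested and 21 fell. They summed to 73.1 FPKM in carcinomas and 985 FPKM in normal tongue, a 13.5-fold difference, against 6.998-fold for the sum of the tested hair keratins.

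High-sulfur KAPs were the most abundant. Krtap3-1 had 18.3 FPKM in carcinomas and 212 FPKM in normal tongue (log2 fold change −3.54 ± 0.54, q = 2.01e-08 in the authors' deposited table). Krtap3-3 had 24.2 FPKM in carcinomas and 191 FPKM in normal tongue (−2.98 ± 0.52, deposited q = 2.20e-06), and Krtap3-2 had 3.35 FPKM in carcinomas and 36.2 FPKM in normal tongue (−3.44 ± 0.61, deposited q = 2.90e-06). Krtap3-3 and Krtap3-2 share 41.3% and 28.9% of their windows with other transcripts, each mainly with the other. The family as a whole summed to 45.9 FPKM in carcinomas and 439.5 FPKM in normal tongue.

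Krtap13 had 11.4 FPKM in carcinomas and 133 FPKM in normal tongue (−3.54 ± 0.55, deposited q = 2.51e-08). Krtap13-1 had 8.08 FPKM in carcinomas and 91.3 FPKM in normal tongue (−3.50 ± 0.59, deposited q = 4.33e-07), with no window shared with any other gene. The 4 genes Krtap3-1, Krtap3-3, Krtap13 and Krtap13-1 held 84.9% of the summed FPKM of tested KAPs in carcinomas and 63.8% in normal tongue.

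The remaining high-sulfur genes were less abundant in carcinomas and had larger ratios. Krtap2-4 was at 1.36 FPKM in carcinomas and 39.8 FPKM in normal tongue (−4.87 ± 0.71 in the authors' deposited table), with 43.8% of its windows shared, mainly with Gm11562. Krtap1-3 was at 0.705 FPKM in carcinomas and 19.4 FPKM in normal tongue (−4.78 ± 0.74, deposited q = 2.91e-08), and Krtap1-4 at 0.859 FPKM in carcinomas and 18.8 FPKM in normal tongue (−4.45 ± 0.75, deposited q = 5.44e-07). Krtap1-5 was the scarcest of the tested members in carcinomas, at 0.0383 FPKM there and 3.54 FPKM in normal tongue (−6.53 ± 1.33, deposited q = 9.92e-05). With a pseudocount of 1 FPKM, the log2 fold change of Krtap1-5 became −2.13. The 3 Krtap1 genes share under 10% of their windows with other genes. Krtap26-1 was at 0.465 FPKM in carcinomas and 10.4 FPKM in normal tongue (−4.49 ± 0.78), and Krtap27-1 at 0.168 FPKM in carcinomas and 3.14 FPKM in normal tongue (−4.22 ± 1.11), with deposited q-values of 1.41e-06 and 0.00777. The same pseudocount gave −2.97 for Krtap26-1 and −1.82 for Krtap27-1. All 11 tested genes grouped here as high-sulfur fell, with a median log2 fold change of −4.22.

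The ultrahigh-sulfur KAPs that fell had a median log2 fold change of −6.49, but single genes overlapped the high-sulfur class: Krtap1-5 lay below 4 of the Krtap4 genes and Krtap9-3 lay among the high-sulfur genes. All 8 Krtap4 genes fell in the authors' deposited table, by 50.4-fold for Krtap4-13 up to 126-fold for Krtap4-2. They lay between 0.116 and 0.468 FPKM in carcinomas and between 14.6 and 28.8 FPKM in normal tongue, so the highest was 1.97 times the lowest in normal tongue. As a sum, the family stood at 2.35 FPKM in carcinomas and 177 FPKM in normal tongue, 75.3-fold lower. Because the carcinoma levels were under 1 FPKM, a pseudocount of 1 FPKM shrank the log2 fold changes of the 8 genes to between −4.52 and −3.81.

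Krtap4-1 had 0.296 FPKM in carcinomas and 28.8 FPKM in normal tongue (log2 fold change −6.60 ± 0.79, with q listed as 0 in the authors' deposited table). Krtap4-16, the family member with no window shared with another gene, had 0.448 FPKM in carcinomas and 25.01 FPKM in normal tongue (−5.80 ± 0.74, deposited q = 3.57e-12). Krtap4-7 (−5.88 ± 0.74), Krtap4-8 (−6.61 ± 0.92), Krtap4-9 (−6.37 ± 0.81), Krtap4-6 (−6.92 ± 0.94) and Krtap4-2 (−6.98 ± 0.95) had deposited q-values of 2.98e-10 or less. Krtap4-13 (−5.66 ± 1.31, deposited q = 0.00132) shared 81.3% of its windows, mainly with its neighbour Gm11554, and has the widest standard error of the family.

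Krtap9-1 was at 0.115 FPKM in carcinomas and 17.0 FPKM in normal tongue (−7.20 ± 1.17, deposited q = 1.56e-07) and had the lowest deposited log2 fold change among the tested members. With a pseudocount of 1 FPKM it was −4.01, behind 5 Krtap4 genes and Krtap2-4. Krtap9-3 was at 1.56 FPKM in carcinomas and 30.9 FPKM in normal tongue (−4.31 ± 0.72, deposited q = 4.53e-07). It lies beside Krtap1-3 in the genome, and Krtap9-1 lies beyond the Krtap4 genes. Krtap9-1 shares 36.6% of its windows, mainly with Gm11559. The 10 ultrahigh-sulfur genes that fell held 5.51% of the summed KAP FPKM in carcinomas and 22.9% in normal tongue. Krtap12-1, whose family was grouped here with this class, was listed at 0.0992 FPKM in carcinomas and 0.369 FPKM in normal tongue. It was not called (−1.90 ± 1.36, deposited q = 1.00). Counted as high-sulfur instead, Krtap12-1 would be the only tested gene of that class that was not called.

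**Figure D2:**
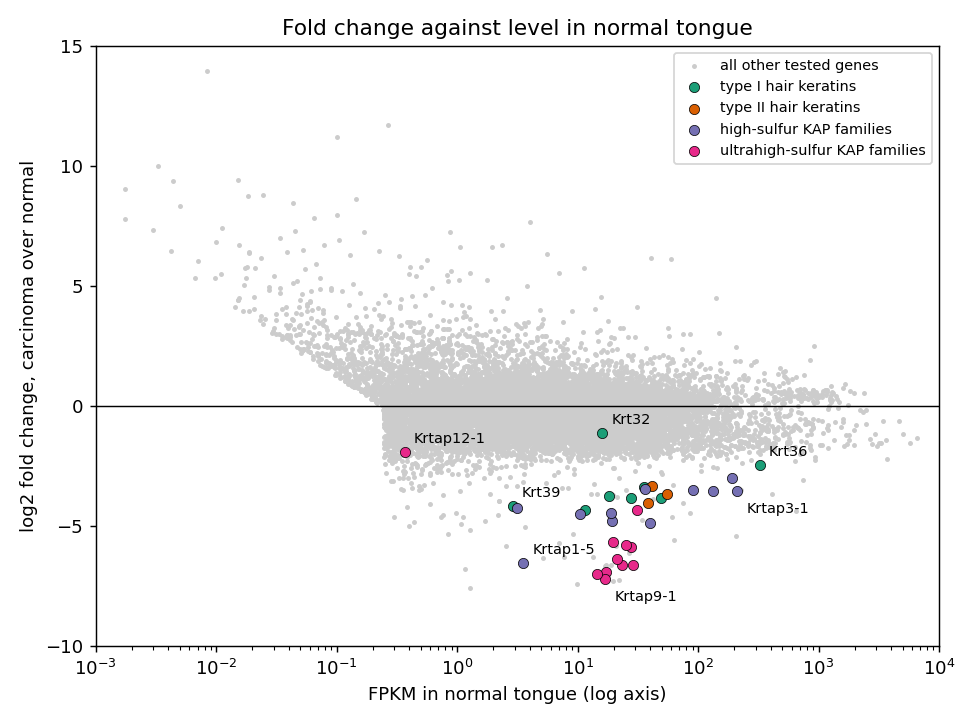
Log2 fold change of carcinoma over normal against FPKM in normal tongue (log axis) for tested genes with a finite fold change; grey points are all other genes and coloured points the 33 tested hair keratin and KAP genes by class. The coloured points lie below 0, and 9 of the 10 called ultrahigh-sulfur genes lie below every hair keratin.

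Across the 31 genes that fell, the percentage of shared windows showed little relation to the log2 fold change (Spearman's rho 0.08, across genes, which are not independent). The FPKM in normal tongue was more closely related to it (rho 0.65 across the same genes), with lower fold changes in the less abundant genes. Of these 31 genes, 16 were under 1 FPKM in carcinomas. With a pseudocount of 1 FPKM, Krt39, Krtap27-1 and Krtap1-5, the least abundant in normal tongue, had −1.75, −1.82 and −2.13. These were then the smallest falls, and rho was not computed with the pseudocount.

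The other 30 KAP genes were untested, none above 0.0402 FPKM in carcinomas or 0.236 FPKM in normal tongue. Of the 30, 10 were listed at 0 in both groups. Depth is unknown from the table, so a low level cannot be told from absence.

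All 14 genes of the high glycine-tyrosine families were among them. These small proteins are known from the hair shaft. The highest were Krtap6-2, at 0.0402 FPKM in carcinomas and 0.236 FPKM in normal tongue, and Krtap16-7 (now Krtap21-1), at 0.0126 FPKM in carcinomas and 0.211 FPKM in normal tongue, and 9 of the 14 were listed at 0 in both groups. The 5 Krtap5 genes on chromosome 7, an ultrahigh-sulfur family, reached no more than 0.119 FPKM in normal tongue and were listed at 0 in carcinomas. Krtap10-4, Krtap10-10, Krtap17-1 and Krtap9-5, grouped here in the same class, were at 0.00960 FPKM or less in carcinomas and 0.0314 FPKM or less in normal tongue. The high-sulfur genes Krtap11-1, Krtap14, Krtap15 and Krtap24-1 were also near 0, at 0.00846 FPKM or less in carcinomas and 0.0225 FPKM or less in normal tongue.

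Tested and untested KAP genes lay in separate blocks of the genome. In the deposited table, whose loci belong to a mouse build not named in the sources used here, the chromosome 11 cluster runs from Krtap3-3 to Krtap17-1 (11, 99411446 to 99855308) between the type I hair keratins Krt40 and Krt33a. Its first 30 rows, from Krtap3-3 to Gm11567 over 330 kb, were all tested, with 3.54 to 212 FPKM in normal tongue, and 29 of them fell. The next 6 rows, from Krtap31-1 to Krtap17-1 over 86.1 kb, were all untested, at 0.0106 FPKM or less in carcinomas and 0.0399 FPKM or less in normal tongue. The row after them, Krt33a, was again at 0.584 FPKM in carcinomas and 11.6 FPKM in normal tongue.

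On chromosome 16 the cluster from Krtap24-1 to Krtap11-1 (16, 88610954 to 89571428) was divided in a like way. Its 8 tested rows were contiguous over 147 kb, from 2310079G19Rik to 2310057N15Rik and including Krtap26-1, Krtap27-1, Krtap13-1 and Krtap13, with 3.14 to 135 FPKM in normal tongue, and all 8 fell. The following 20 rows over 760 kb, which hold the high glycine-tyrosine genes, were untested and none exceeded 0.236 FPKM in normal tongue. KAP genes on chromosomes 7 and 10 gave 1 tested gene among 8, the uncalled Krtap12-1.

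**Figure D3:**
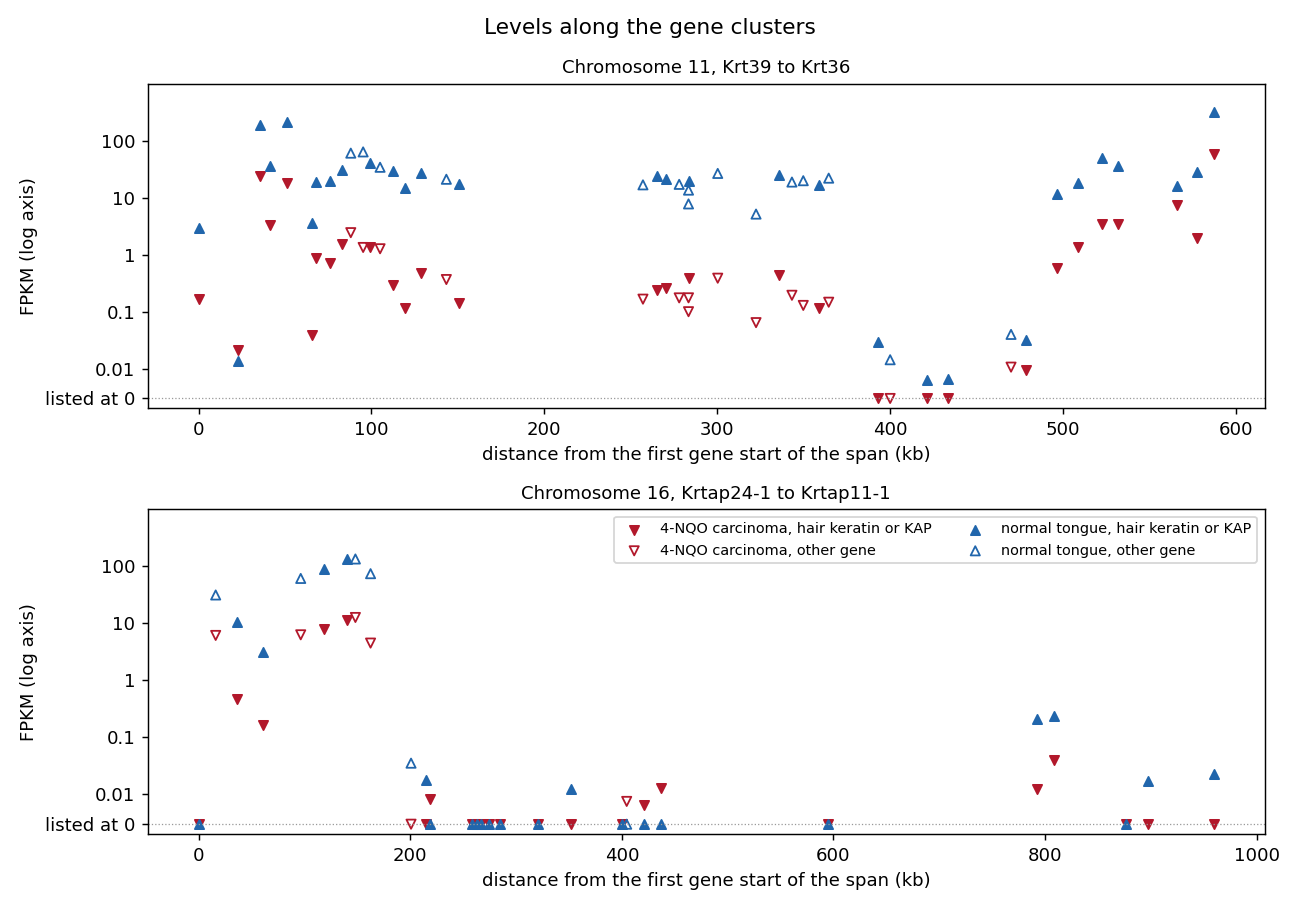
FPKM (log axis, zeros drawn on the dotted line) along the chromosome 11 span that includes both hair keratins and KAPs (top) and the chromosome 16 KAP cluster (bottom), against distance in kb from the first gene start; red, 4-NQO carcinoma, blue, normal tongue, filled symbols hair keratins or KAPs, open symbols other genes. The expressed genes form contiguous blocks, lower in carcinomas, next to blocks at 0.236 FPKM or less in both groups.

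Members differed in gene structure by class, as background to how well each could be measured. Transcripts were found for 66 of the 67 in GENCODE M21. Each of the 52 KAP genes has a single exon and a transcript of 304 to 1652 bases, whereas the 14 matched hair keratins have 7 or 9 exons and 1320 to 2570 bases. Among tested members, 14 had under 10% of their 50-base windows in common with another gene, and 13 of these fell, with a median log2 fold change of −4.34.

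Genes that act in hair and papilla cells were looked at beside the structural genes, from a list of 27 regulators, enzymes and adhesion genes, all tested. By the authors' deposited q-values, 2 fell and 2 rose, and the median log2 fold change was −0.04, beside −0.04 over all tested genes. Dsg4, the desmosomal cadherin of the hair cortex, fell to 0.0450 FPKM in carcinomas, against 0.988 FPKM in normal tongue (−4.45 ± 0.87, deposited q = 3.61e-05). Padi1, a peptidylarginine deiminase of cornifying cells, was at 2.89 FPKM in carcinomas and 9.65 FPKM in normal tongue (−1.74 ± 0.49, deposited q = 0.0169). The deiminase Padi3, at 0.582 FPKM in carcinomas and 0.0349 FPKM in normal tongue, rose (4.06 ± 1.13, deposited q = 0.0156), as did Ovol1, a zinc-finger factor of epidermal differentiation, at 36.7 FPKM in carcinomas and 11.6 FPKM in normal tongue (1.66 ± 0.49, deposited q = 0.0291).

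Apart from Ovol1, the transcription factors of the list were not called, and they lay on both sides of 0. Hoxc13 was listed at 0.561 FPKM in carcinomas and 2.13 FPKM in normal tongue (−1.92 ± 0.71, q = 0.170 in the authors' deposited table). Lef1 was at 0.653 FPKM in carcinomas and 2.18 FPKM in normal tongue (−1.74 ± 0.70, deposited q = 0.272), and Msx2 at 1.46 FPKM in carcinomas and 3.63 FPKM in normal tongue (−1.32 ± 0.59, deposited q = 0.415). Foxn1, the factor mutated in nude mice, was at 4.31 FPKM in carcinomas and 3.27 FPKM in normal tongue (0.40 ± 0.54, deposited q = 1.00). Gata3 (1.84 ± 0.88), Vdr (1.15 ± 0.46), Foxq1 (1.05 ± 0.48) and Prdm1 (0.98 ± 0.48) had positive log2 fold changes in the authors' deposited table, Dlx3 (−0.70 ± 0.45) and Msx1 (−0.41 ± 1.11) negative ones. Trichohyalin, Tchh, which hardens the inner root sheath and is also found in papillae, was at 25.3 FPKM in carcinomas and 112 FPKM in normal tongue and just missed the limit (−2.14 ± 0.67, deposited q = 0.0542).

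**Figure D4:**
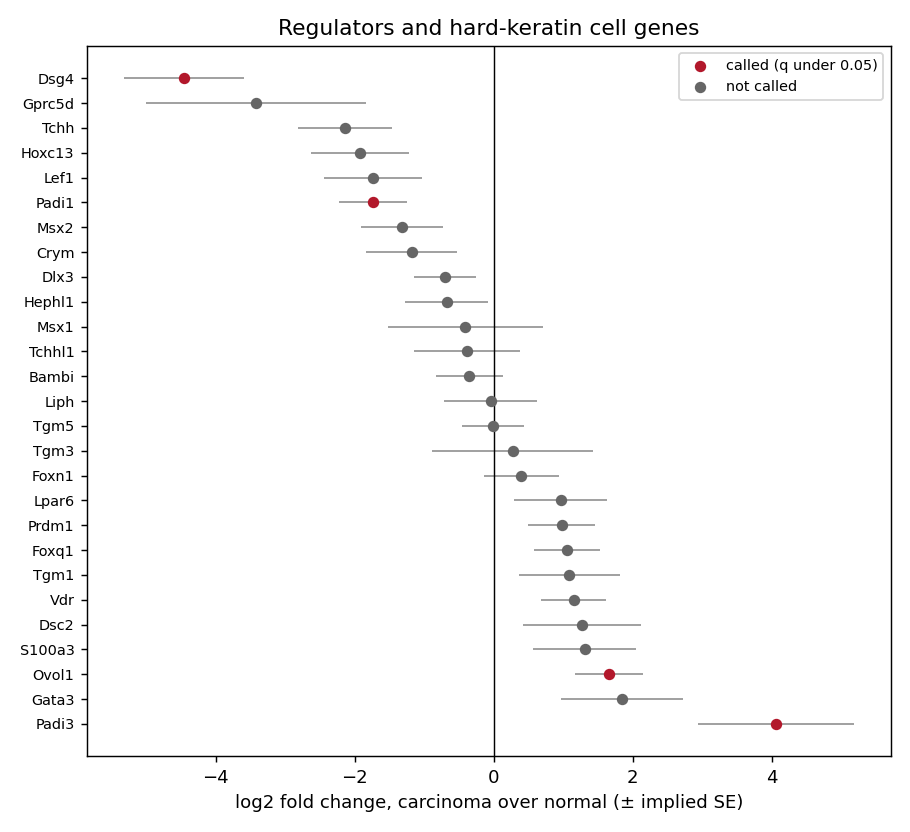
Log2 fold change of carcinoma over normal for the 27 regulators, enzymes and adhesion genes of hair and papilla cells, with the standard error implied by the authors' statistic as bars; red points were called and grey points were not. Points lie on both sides of 0, with Dsg4 lowest at −4.45 and Padi3 highest at 4.06, each under 1 FPKM in both groups.

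Markers of the other cells of a hair follicle differed in level between lists. The 7 inner root sheath keratins Krt25, Krt26, Krt27, Krt28, Krt71, Krt73 and Krt74, which mark hair follicles and not the shaft, summed to 0.579 FPKM in carcinomas and 0.262 FPKM in normal tongue, and Krt26 was at 0 in both. The wider root sheath and companion list had no call among 2 tested genes, Krt25 and Tchh. The 7 pigment cell genes (Tyr, Tyrp1, Dct, Pmel, Mlana, Slc45a2, Oca2) were each at 0.583 FPKM or less in carcinomas and 0.495 FPKM or less in normal tongue, with no call among 3 tested. The sebaceous genes Mc5r, Awat2 and Elovl3 were each at 0.310 FPKM or less in carcinomas and 0.321 FPKM or less in normal tongue, whereas Plin2 was at 26.4 FPKM in carcinomas and 30.2 FPKM in normal tongue. Fads2 was at 11.05 FPKM in carcinomas and 7.996 FPKM in normal tongue, and Far2 at 0.621 FPKM in carcinomas and 3.64 FPKM in normal tongue. These 6 sebaceous genes summed to 38.5 FPKM in carcinomas and 42.6 FPKM in normal tongue, with no call among 5 tested. Of 4 tested dermal papilla genes Hhip fell (−2.77 ± 0.70) and Sostdc1 rose (1.99 ± 0.50).

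Some epithelium and muscle markers were also called, where 3.19% of all tested genes fell. Of 7 tested genes of tongue and filiform papilla epithelium, 4 fell by the deposited q-values. They were Crnn, a protein of late squamous differentiation (−4.44 ± 0.54), Krt76 (−3.06 ± 0.72), Krt24 (−2.46 ± 0.50) and Krt36. Krt36 is also a hair keratin member, and the list's median of −2.45 is its own value. The list is thus not separate from the members. Sprr3 (−0.53 ± 1.01), Tgm3 (0.28 ± 1.16) and Krt5 (1.93 ± 2.38) were not called, and Krt4, Krt13, Krt14 and Krt84 have failed estimates. Among 4 tested genes of the epidermis list Krt1 rose (3.98 ± 0.55) and none fell. Lor (−0.76 ± 1.99), Krt10 (−0.91 ± 0.66) and Lce1a1 (−0.71 ± 0.51) had negative fold changes that were not called. The median of that list was −0.74. Of 6 tested skeletal muscle genes Myh2 (−3.65 ± 0.67) and Myot (−1.91 ± 0.54) fell, Des, Mylpf, Tnni2 and Mb were not called, and the median was −1.56. The other 6 of the list have failed estimates. The part of these epithelial and muscle differences in the hair keratin and KAP values was not tested.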

How the data were processed

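The single file analysed was the authors' own comparison of 3 carcinomas with 5 normal tongues. Per the file headers it gives 1 FPKM per group, a log2 fold change, a statistic, a p-value and a q-value per gene, and the deposited FPKM values hold no replicate, so depth per sample and precision from counts are unknown and no new test between groups was possible. Per the submitters' processing notes, GSNAP 2011.11.17, edgeR and GRCh37, a human build, were named without a role, while no mouse build is given in the sources used here. In tested rows with a finite fold change and a nonzero statistic, the sign of the deposited log2 fold change (checked as the log2 of carcinoma FPKM over normal FPKM) is opposite to that of the statistic, from which the standard error was derived as fold change over statistic. A gene was called at a deposited q-value under 0.05. The table was summarised with Python 3.11.15 and pandas 2.3.3. On simulated rows the Benjamini-Hochberg adjustment was checked, together with the standard error rule, which holds there by construction. The window, promoter and cluster steps were not tested in this way. Loci were shifted to count from 1 and not converted. On chromosome 1 they reach 197002909, past the last gene end of 195291439 in GRCm38, so they are not in the build of the promoters. Shared windows came from GENCODE M21 transcripts matched by RefSeq accession, promoters and current symbols from RefSeq (GRCm38.p6, 66 of 67 matched). KAP classes follow the current family number, with the Krtap10 and Krtap12 families grouped here as ultrahigh-sulfur. Krtap16-3, Krtap31-1 and Krtap31-2 were not classed. Members, gene lists and the rule for named genes (every hair keratin, up to 25 called KAPs, the 6 most abundant uncalled tested KAPs, the 3 tested KAPs of most positive fold change, and companion genes that were called, failed or define a cell) were chosen with earlier results of these data known. Untested KAP genes are named outside that rule, after their values were seen. Alternatives were a stricter q-value, a Benjamini-Hochberg adjustment, pseudocounts, re-centring, a level or fold minimum and leaving out rows with shared loci or sequence.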

Additional observations from a re-analysis of the deposited data

How the results depend on the processing

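Of the hair keratin and KAP genes, 31 fell under a q-value limit of 0.01, under a Benjamini-Hochberg adjustment over all tested rows, with a minimum of 1 FPKM in whichever group was higher and with at least a 4-fold difference, and 30 when rows sharing a locus were left out. With only genes under 10% shared windows, an alternative chosen after seeing the data, 13 fell, since 14 were tested. None rose under any alternative run. Calls over all tested genes numbered 988, 571 at the stricter q-value, 579 with a 4-fold minimum, and 1420 with the Benjamini-Hochberg adjustment. The median log2 fold change of the 33 tested members was −4.22 and became −3.41 with a pseudocount of 1 FPKM, which shrinks low values by construction, while the other alternatives gave −4.34 to −3.98. All 33 single fold changes stayed negative, between −4.52 and −0.32 with that pseudocount. No paired analysis was possible because the table holds no value per sample, and for the same reason no sample could be left out.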

Other observations

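Genes without a keratin name lay inside the same clusters and were mostly lower in carcinomas too. Some share sequence with named KAP genes, so the split of reads between them is uncertain. Krtap4-13 shares 81.3% of its windows, mainly with Gm11554, and Krtap2-4 shares 43.8%, mainly with Gm11562. Krtap9-1 shares 36.6%, mainly with Gm11559, and Krtap13 shares 24.9%, mainly with 2310057N15Rik. Members were chosen by symbol, and whether these other rows are KAP genes too was not tested. In the authors' deposited table the chromosome 11 KAP cluster holds 15 rows that are not named Krtap, of which 13 were tested and 12 fell, with a median log2 fold change of −6.28. Gm11937 was at 1.34 FPKM in carcinomas and 63.4 FPKM in normal tongue (−5.57 ± 0.79, q = 4.92e-10), Gm11938 at 2.43 FPKM in carcinomas and 60.3 FPKM in normal tongue (−4.63 ± 0.67), and Gm11559 at 0.129 FPKM in carcinomas and 19.8 FPKM in normal tongue (−7.27 ± 0.89). The one that was not called, Gm11554, shares its deposited locus with Krtap4-13 and has a standard error of 3.40 (−6.28, q = 0.681). On chromosome 16 the 4 tested rows of this kind all fell: 2310034C09Rik was at 12.7 FPKM in carcinomas and 135 FPKM in normal tongue (−3.41 ± 0.54), 2310057N15Rik at 4.52 FPKM in carcinomas and 74.5 FPKM in normal tongue (−4.04 ± 0.59), 2310061N02Rik at 6.30 FPKM in carcinomas and 61.5 FPKM in normal tongue (−3.29 ± 0.59) and 2310079G19Rik at 6.15 FPKM in carcinomas and 31.5 FPKM in normal tongue (−2.36 ± 0.59). These genes and the others in this paragraph were chosen after their values were seen.

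In the whole deposited table, 30 genes fell with a log2 fold change of −5 or lower. Of these, 20 lie in the chromosome 11 span of type I hair keratins and KAPs, 10 of them named Krtap. That span, from Krt39 to Krt36, held 38 of the 15783 tested genes. With a pseudocount of 1 FPKM, no tested hair keratin or KAP gene was below −4.52.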
